A study of Triticum turgidum subsp. durum with 32 samples.

Results

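In the leaf transcriptome of tetraploid Kronos wheat, 127 of 150754 transcribed loci differed at least 3-fold between phyC-null plants and their wild-type sister line in both PHYC experiments and, over both PHYB experiments together, less than 2-fold between phyB-null plants and theirs. Of these loci, 88 were higher and 39 were lower in phyC-null. They were chosen on CPM (the count of a locus divided by the total of its library, times 1000000). The larger group mean had to reach 1 CPM in each PHYC experiment, and the ratio of phyC-null to wild type, with 0.05 CPM added to both means, had to be at least 3 or at most its inverse in each. The same ratio of phyB-null to its wild type, over 8 libraries each, had to lie between 0.5 and 2. Loci that the study lists in its tables (1 would have qualified) and loci in the middle of chromosome 1B (3 would have qualified) were left out. The level requirement alone was met by 39378 loci, termed expressed loci below. Since the rule used the contrast of each null mutant with its wild type, the sizes of those contrasts are a description of how the loci were chosen and carry no test here.

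Phytochromes are red and far-red light receptors that move into the nucleus when activated by light and change the transcription of many genes there. In wheat and its relatives PHYB and PHYC are both needed for timely flowering in long days, where PHYC acts upstream of the photoperiod gene PPD1 and the florigen gene FT1 in the leaf. The study described its loci by their closest protein match, and only a part of those descriptions (2081 loci) was used here. None of the 127 loci is in that part or matched the reference gene table, so no function is given for any of them. All plants were Kronos, a durum wheat with an A and a B genome. The phyC-null and phyB-null lines each combine loss-of-function TILLING mutations (induced point mutations found by screening) in the A and the B copy of PHYC or of PHYB, and each was compared with a wild-type sister line from the same crosses, here termed the PHYC wild type and the PHYB wild type. Each line therefore carries whatever other mutations its own crosses left in it. Leaf number 3 was taken from 4-week-old plants, 4 h after the start of the light period. Plants were grown in 16 h light and 8 h dark at 20 °C and 18 °C. The light intensity was about 260 µM per square metre per second. There were 4 biological replicates per genotype in each of 2 experiments, which gave 8 groups of 4 libraries. The PHYB and PHYC lines were not grown together, and the 2 PHYC experiments were run in separate chambers.

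Library totals ranged from 15961572 to 47695062 counted reads with a median of 25979236, so that 1 read in the shallowest library was worth 0.0627 CPM. Library 2 of the PHYC wild type in experiment 1 stood apart, since its log2 values correlated with the mean of its group mates at 0.927, against 0.958 to 0.993 for the other 31 libraries. Without it the rule found 139 loci. Of the mutated genes, the locus described as putative phytochrome B, Traes_4AS_1F3163292 (4A, 97979541 to 97987719), lay between 6.77 and 8.01 CPM in phyB-null and between 8.88 and 16.9 CPM in the 24 other libraries, without overlap. The study lists it among genes changed in phyB-null on these samples, and a point mutation need not change the level of a transcript. The PHYC locus was not analysed here. As a leaf marker, only 1 locus described as a chlorophyll a-b binding protein, td-k61_contig_63190 (5A, 121046909 to 121048254), was looked at, and it was low, at 0.406 to 2.26 CPM over the 32 libraries, so the tissue was not checked further. Like the PHYB locus it comes from a list that the study chose on these samples. With totals as the only scaling, the median expressed locus was itself 0.32 higher (log2) in phyC-null in experiment 1 and 0.08 higher in experiment 2, which makes the raised side of the rule the easier one to meet. With trimmed-mean (TMM) factors within each line the rule found 122 loci, 72 raised and 50 lowered, in place of 88 and 39.

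The change was of similar size in both experiments. The median log2 ratio of the raised loci was 2.55 in experiment 1 and 2.61 in experiment 2, and that of the lowered loci was −3.83 and −4.14, while the 2 ratios of a locus lay within 1 log2 unit of each other at 108 of 127 loci. In whole leaves, fewer cells that express a locus and less RNA of it per cell cannot be told apart. Most loci were of low abundance, with a higher line mean under 5 CPM at 81 loci and of at least 10 CPM at 25. In the fits of each experiment alone (edgeR's quasi-likelihood test, Benjamini-Hochberg adjusted P at most 0.01), 89 of the 127 loci were called in experiment 1, beside 1.64% of all loci tested, and 100 in experiment 2, beside 1.04%. These counts are fixed in large part by the rule. In the phyB-null fits 114 of the loci were tested, and 8 were called in experiment 1 (background 9.41%) and 11 in experiment 2 (background 11.6%). Without 1 of the phyB-null libraries or library 1 of the wild type the first count was 1 to 5, and without library 1, 3 or 4 of phyB-null or library 1 of the wild type the second was 4 to 6. Just inside the threshold, Traes_1BL_9B3C88F90 was raised 3.88-fold in experiment 1 and 3.003-fold in experiment 2, and td-k51_contig_31602 was raised 4.09-fold and 3.01-fold. Just outside it, the corresponding ratios were 4.27 and 2.99 at Traes_2AS_11CD58DCB and 2.99 and 4.49 at td-k41_contig_36683. On the lowered side, Traes_1AL_6E1D671CC1 (3.08-fold and 5.74-fold lower) and td-k45_contig_36876 (3.14-fold and 3.37-fold lower) were just inside, and Traes_2AS_FFB730BC6 (3.36-fold and 2.997-fold lower) and td-k21_contig_49553 (2.98-fold and 3.94-fold lower) just outside.

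The PHYB lines, which carry intact PHYC, gave a reference that the PHYC contrast did not use. At most of the 127 loci the mean of the PHYB wild type lay closer to that of phyC-null than to that of the PHYC wild type. The place of the PHYB wild type between the PHYC wild type (0) and phyC-null (1), taken from log2 means of 8 libraries each, had a median of 0.883. At 77 loci (60.6%) the PHYB wild type lay near or beyond phyC-null (over 0.75), at 34 near or beyond the PHYC wild type (under 0.25) and at 16 in between. The 77 comprised 46 of 88 raised loci (52.3%) and 31 of 39 lowered loci (79.5%). These are places of means. By library, the PHYC wild type and phyC-null did not overlap at 40 of the 46 and at only 7 of the 31. The shares over expressed loci were 1.42% and 0.516%. For scale, the same rule with the lines exchanged found 791 loci for phyB-null, and at 40 of those (5.06%) the PHYC wild type lay near or beyond phyB-null, with a median place of 0.023. In the plot of all members by library, the PHYC wild-type columns are mostly the odd ones in the lower part of each block.

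**Figure D1:**
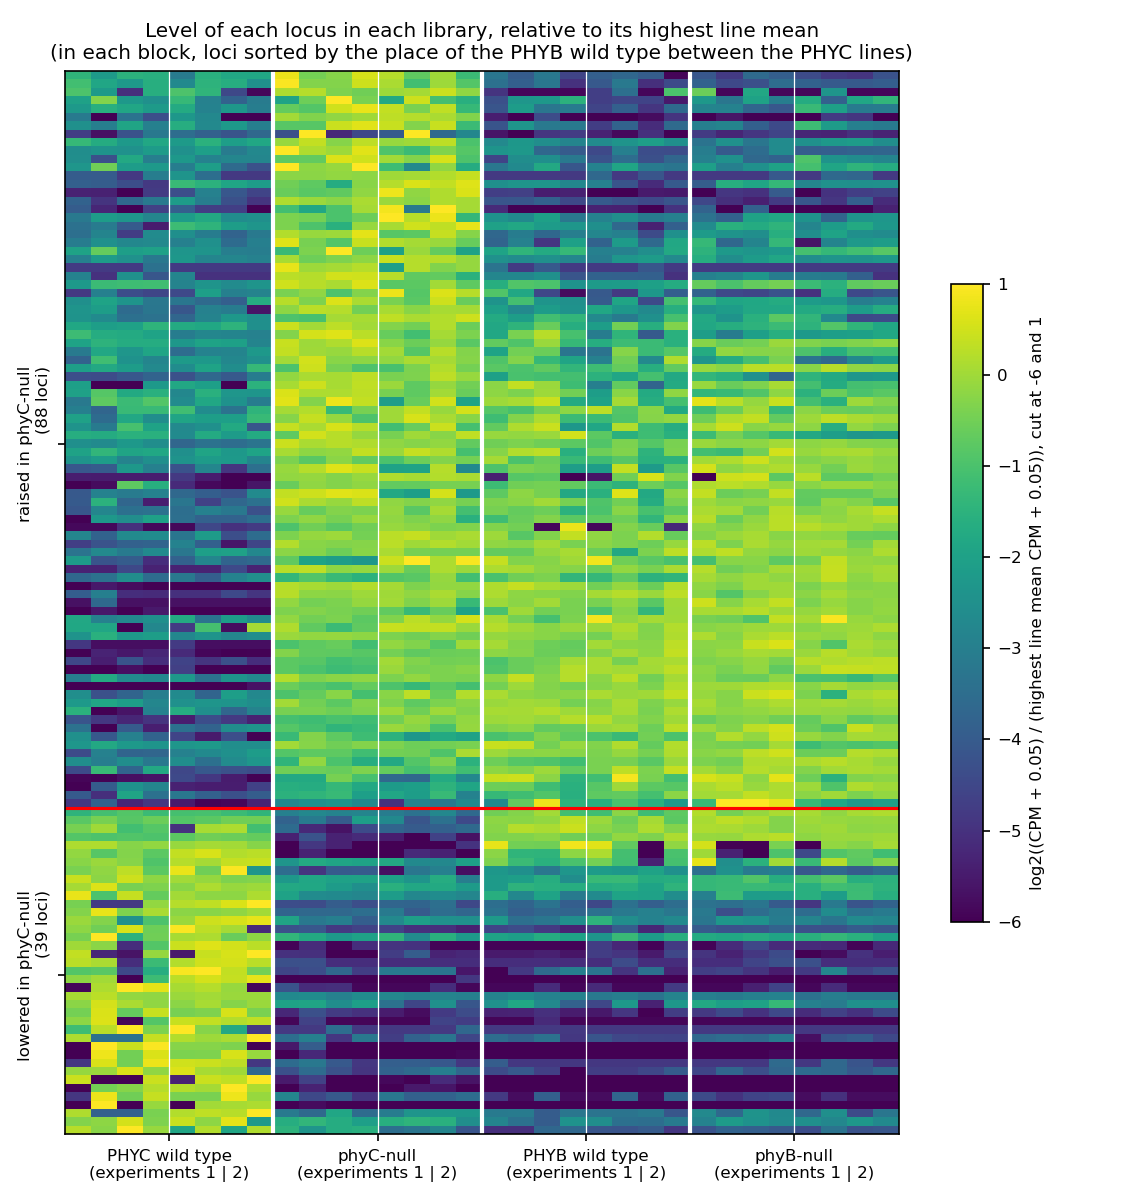
Each row is 1 of the 127 loci and each column 1 of the 32 libraries, in 4 lines of 8 (white lines separate lines and experiments). Colour gives log2 of CPM + 0.05 relative to the highest line mean of that locus, and the red line divides the 88 raised from the 39 lowered loci. From top to bottom of each block the PHYB libraries change from the colour of the PHYC wild type to that of phyC-null.

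A model of all 32 libraries with 1 mean per group (edgeR) gave the same picture in counts. The wild types of both lines differed at 94 of the 127 loci, which is 74.02%, beside 17.9% of the 90331 loci tested and 29.8% of the 39251 other expressed loci. At 86 of these 94 loci the PHYB wild type was on the phyC-null side and at 8 on the other side. Split by direction, 53 of 88 raised loci were higher in the PHYB wild type (background 8.96%) and 33 of 39 lowered loci were lower in it (background 8.98%). The PHYB wild type differed from phyC-null itself at 54 loci (background 21.7%), and at 70 loci it was called different from the PHYC wild type and was not called against phyC-null. The 8 libraries of each wild type did not overlap at 53 loci, beside 5.83% of expressed loci, and those of the PHYB wild type and phyC-null did not at 31, beside 7.16%. Since the PHYC wild-type libraries also entered the rule, these counts are not independent of it and no P value of a single locus is given for them. Line, sowing and chamber cannot be told apart in the comparison of both wild types.

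**Figure D2:**
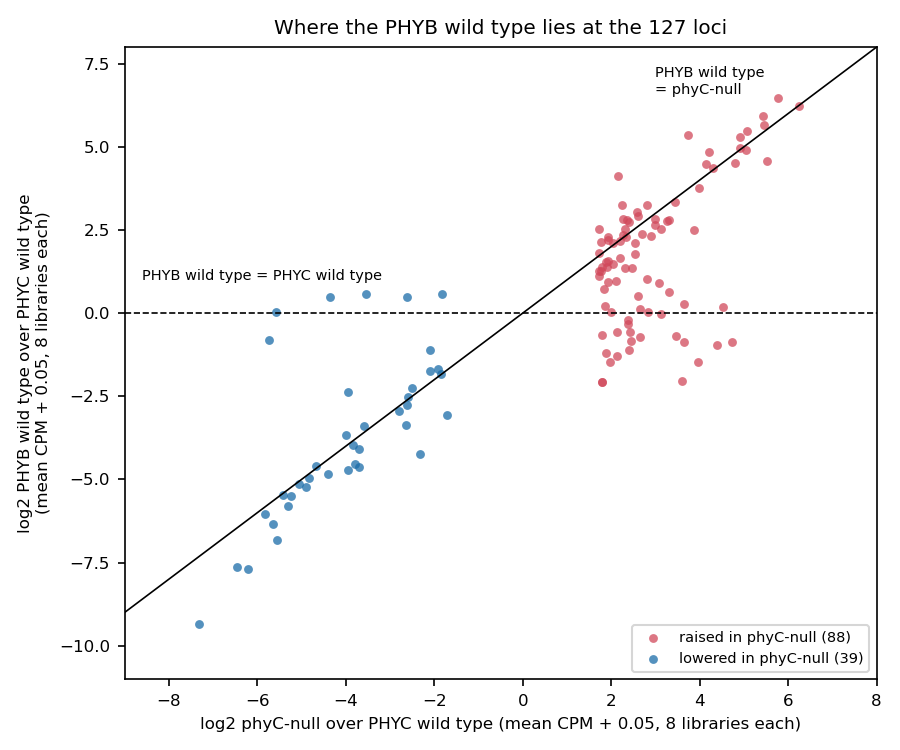
Each point is 1 of the 127 loci, with the log2 ratio of phyC-null to the PHYC wild type on the horizontal axis and that of the PHYB wild type to the PHYC wild type on the vertical axis, both from mean CPM + 0.05 of 8 libraries. Points on the solid diagonal have the PHYB wild type at the level of phyC-null (77 loci lie near or beyond it). Points on the dashed line have both wild types at 1 level. The 34 loci with a place under 0.25 lie near that line or beyond it, away from the diagonal, 25 of them beyond (a place under 0).

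The 8 phyC-null and 8 PHYC wild-type libraries did not overlap at 87 of the 127 loci, beside 1.93% of expressed loci, and phyC-null was above at 73 of them, beside 1.42%. Of the 8 raised loci with the largest ratios among these, all were close to silent in the PHYC wild type, and 7 were present in every library of the other 3 lines (the other, contig100711, is described with its neighbour on 3A). Traes_2BL_6E8246DF3, on an unplaced scaffold of chromosome arm 2BL and among the 3 most abundant raised loci, lay between 0.156 and 0.754 CPM in the PHYC wild type, with a median of 0.457. In phyC-null its libraries lay between 29.6 and 43.8 CPM, and in the PHYB wild type between 25.3 and 49.02 CPM with a median of 38.4. The phyC-null and PHYB wild-type libraries overlapped fully, and both were far above every PHYC wild-type library. On chromosome 1B, td-k45_contig_46252 (258339801 to 258344887) averaged 0.0819 ± 0.0666 CPM (SD, n = 8) in the PHYC wild type, 7.20 ± 1.20 in phyC-null, 11.5 ± 1.92 in the PHYB wild type and 13.3 ± 1.41 CPM in phyB-null. Its neighbour td-k35_contig_5600, 258345092 to 258347074, lay at 0.0361 ± 0.0340 CPM in the PHYC wild type and at 3.75 ± 1.18, 4.26 ± 1.38 and 6.05 ± 0.666 in the other lines in the same order. These loci lie next to each other, with few or no reads in any PHYC wild-type library.

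The other loci of this kind lie on chromosomes 7A, 2A and 4A. td-k25_contig_15979 (7A, 161088918 to 161089699) had no read in 6 of 8 PHYC wild-type libraries and 1.98 to 4.45 CPM in phyC-null, 2.48 to 5.73 in the PHYB wild type and 2.80 to 6.20 in phyB-null. td-k61_contig_40392, on a 7AL scaffold, lay between 0.0403 and 0.224 CPM in the PHYC wild type and between 5.49 and 12.4 CPM in all 24 libraries of the other lines. On scaffolds of 2AS and 4AL, td-k45_contig_82942 averaged 0.00994 CPM in the PHYC wild type against 1.93 ± 0.371 in phyC-null, and isotig22526 averaged 0.0198 against 2.04 ± 0.50 CPM. Both were present in the PHYB wild type, where they averaged 1.76 ± 0.312 and 2.14 ± 0.390 CPM. At all 4 loci every library of the other lines was above every PHYC wild-type library. At td-k25_contig_15979 and td-k61_contig_40392 the PHYB wild type was also called above phyC-null, by 0.60 and 0.44 (log2).

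**Figure D3:**
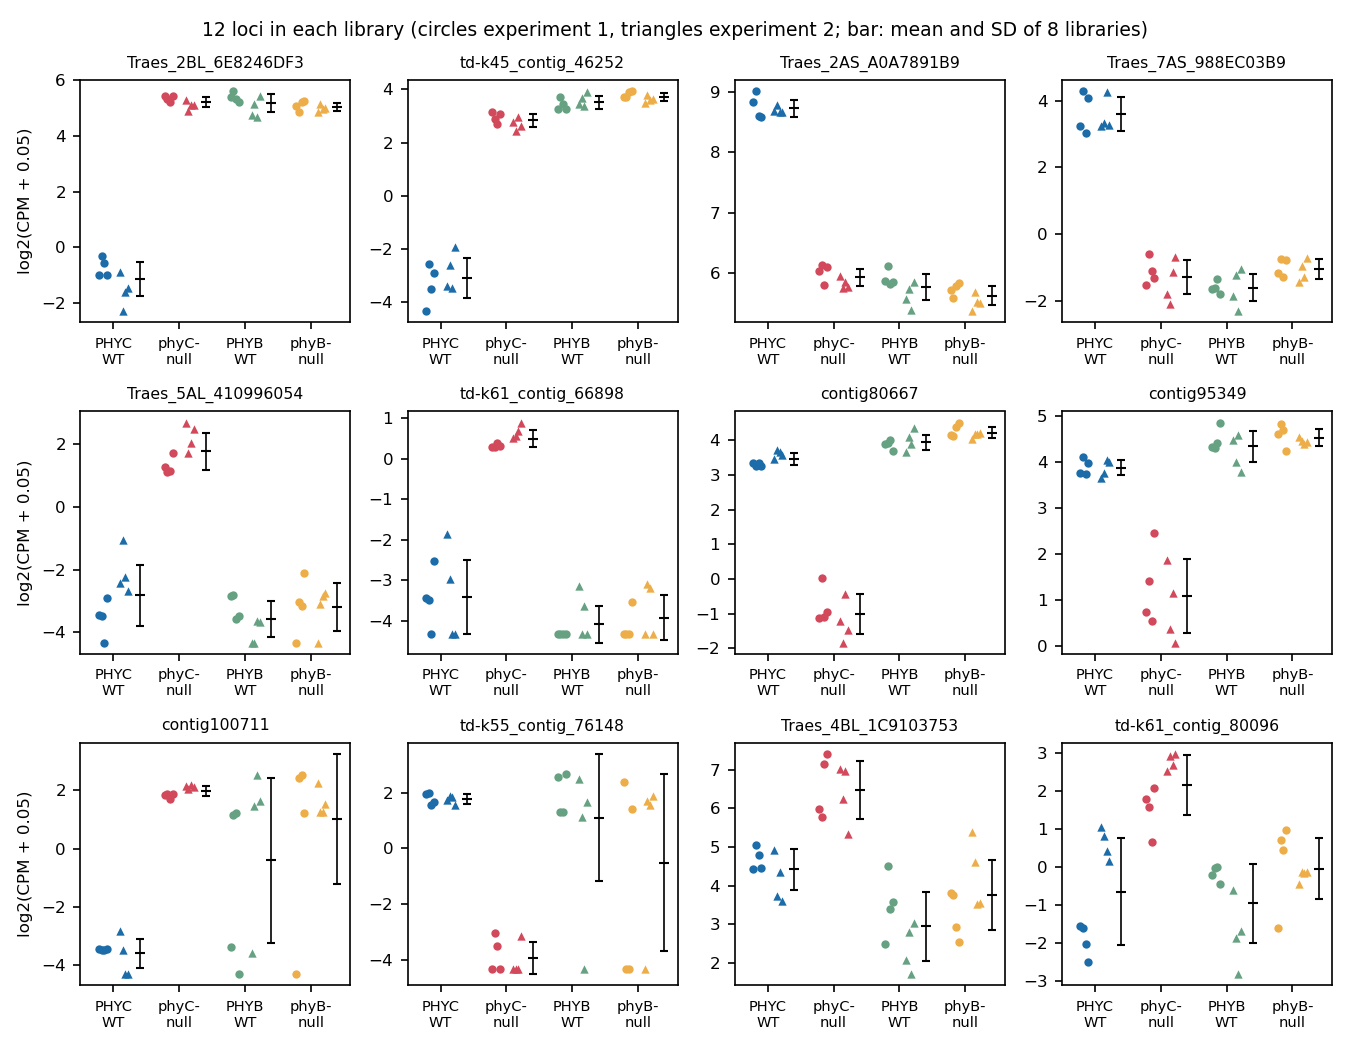
Each panel is 1 locus, with log2(CPM + 0.05) of every library on the vertical axis, circles for experiment 1, triangles for experiment 2, and bars for the mean and SD of the 8 log2 values of a line. In the top row the PHYC wild type stands apart from the other 3 lines, in the middle row phyC-null does, and the bottom row holds loci whose libraries differ within a line or between experiments.

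The most abundant locus of all was a lowered one. Traes_2AS_A0A7891B9 (2A, 7411639 to 7415215) lay between 383 and 516 CPM in the PHYC wild type, with a median of 409 CPM. In phyC-null it lay between 54.4 and 70.4 CPM, in the PHYB wild type between 42.1 and 69.7 and in phyB-null between 41.6 and 57.3. The PHYC wild type was thus several-fold above 3 lines whose libraries overlapped. Traes_7AS_988EC03B9 (7A, 28452027 to 28457595) was likewise highest in the PHYC wild type, with 12.7 ± 4.81 CPM (SD, n = 8) in the PHYC wild type, 0.383 ± 0.149 in phyC-null, 0.289 ± 0.0901 in the PHYB wild type and 0.442 ± 0.0965 CPM in phyB-null. Within the PHYC wild type its libraries fell into 5 of 8.15 to 10.01 CPM and 3 of 16.9 to 19.5 CPM. Traes_2AS_2152FF17A, on a 2AS scaffold, averaged 21.5 ± 4.51 CPM in the PHYC wild type, 3.45 ± 1.90 in phyC-null and 3.12 ± 1.98 in the PHYB wild type. At td-k35_contig_79562 (2B, 18389131 to 18389953) the PHYB wild type lay in between, at 0.468 ± 0.116 CPM. The PHYC wild type held 2.62 ± 1.56 CPM and phyC-null 0.122 ± 0.108. This locus was also called lower in phyB-null in experiment 2, by a fitted log2 change of −2.16. In experiment 1 the change was −0.79 and was not called.

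Traes_1BL_410B15EE0 lies on the same 1BL scaffold as FT-B3, 250 bases away from it. FT-B3 is one of the loci of the study's tables, and FT3 genes, relatives of the florigen gene, are known in barley to promote flowering in short days. The locus lay between 7.49 and 16.2 CPM in the PHYC wild type and between 0.554 and 1.04 CPM in phyC-null, with 0.870 ± 0.202 and 0.945 ± 0.311 CPM in the lines of PHYB, wild type and null. FT-B3 itself averaged 2.34 CPM in the PHYC wild type against 0.344 in phyC-null, and 0.995 and 0.395 CPM in the corresponding PHYB lines. The library kit did not mark strand, so reads of neighbouring transcripts could not be separated by it. Both loci were highest in the PHYC wild type, and at FT-B3 the PHYB wild type was in between.

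Fewer lowered than raised loci kept the PHYC libraries apart, with 14 of 39 free of overlap, beside 0.516% of expressed loci, against 73 of 88. At most of the others, single PHYC wild-type libraries had next to no reads. A library is termed near zero here where it held at most 5% of the highest CPM of its line, at loci where that highest value was at least 1 CPM. Of the 39 lowered loci, 21 (53.8%) had at least 1 such library in the PHYC wild type, beside 1.18% of expressed loci. In the PHYC wild type of the raised loci the count was 8 of 42, and in phyC-null it was 2 of 99 members, beside 0.328% of expressed loci. The count was 9 of 85 in the PHYB wild type, beside 0.878%, and 5 of 88 (5.68%) in phyB-null, beside 0.101%. The low values fell in only 5 of the 8 PHYC wild-type libraries. Libraries 1, 2 and 3 of experiment 1 were near zero at 7, 5 and 11 of the lowered loci, libraries 1 and 4 of experiment 2 at 4 and 6, and the other 3 libraries at none.

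Which libraries were near zero went with the chromosome. On 1A, 4 of the 5 lowered loci concerned were near zero in library 3 of experiment 1 alone. At contig00736, on a 1AL scaffold, the 4 PHYC wild-type libraries of experiment 1 held 2.996, 2.54, 0.0392 and 1.62 CPM and those of experiment 2 held 4.04, 4.71, 4.27 and 3.65. At contig110837 (240549936 to 240550282) they held 1.997, 1.78, 0 and 0.664 CPM in experiment 1 and 1.88, 2.34, 2.42 and 2.01 in experiment 2. Besides the empty library, library 4 was the next lowest at both loci. KukriC3550_11 on 2A (10679593 to 10680266) had the same empty library and the same next lowest one, with 2.83, 3.29, 0 and 1.37 CPM in experiment 1 and 3.90, 4.71, 4.19 and 5.40 in experiment 2. The PHYB lines had no read at KukriC3550_11 in any of their 16 libraries.

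On 7A the low library of experiment 1 was number 1. KukriC2851_4 (51468655 to 51471470) held 0.125, 45.3, 18.2 and 39.1 CPM in the PHYC wild type of experiment 1 and 19.5, 19.99, 38.06 and 23.97 in that of experiment 2. KukriC2851_13 (45312808 to 45316989) held 0.0416, 10.8, 12.4 and 17.3 CPM in experiment 1 and 17.3, 15.5, 29.8 and 16.6 in experiment 2. At both loci library 3 of experiment 2 was the highest of its group, at close to double the level of the others at KukriC2851_13. At 3 further 7A loci library 4 of experiment 2 was empty as well, as at isotig26159 with 0, 9.08, 5.45 and 7.89 CPM in experiment 1 and 3.32, 3.31, 3.14 and 0 in experiment 2.

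On 2B the near-zero libraries were 2 and 3 of experiment 1, and at some loci also 1 of experiment 2. Traes_2BL_7CE6C21A3 (263912732 to 263921640) held 1.83, 0.0397, 0.0392 and 2.24 CPM in experiment 1 and 2.91, 3.12, 3.79 and 5.87 in experiment 2. Further along, Traes_2BL_B0E0A6C71 (265420689 to 265421831) held 7.53, 0, 0 and 7.60 CPM in experiment 1 and 0.0897, 7.64, 6.97 and 14.7 in experiment 2. Traes_2BL_C2337477E, on a 2BL scaffold, held 8.11, 0.119, 0.0784 and 5.81 CPM in experiment 1 and 0.0897, 8.42, 9.39 and 18.5 in experiment 2. The last 2 loci thus fell into 3 near-zero libraries, 4 libraries near 1 level and 1 library, number 4 of experiment 2, at close to double that level. phyC-null averaged 0.0687 ± 0.0547 CPM at Traes_2BL_B0E0A6C71, and the PHYB wild type had no read there.

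**Figure D4:**
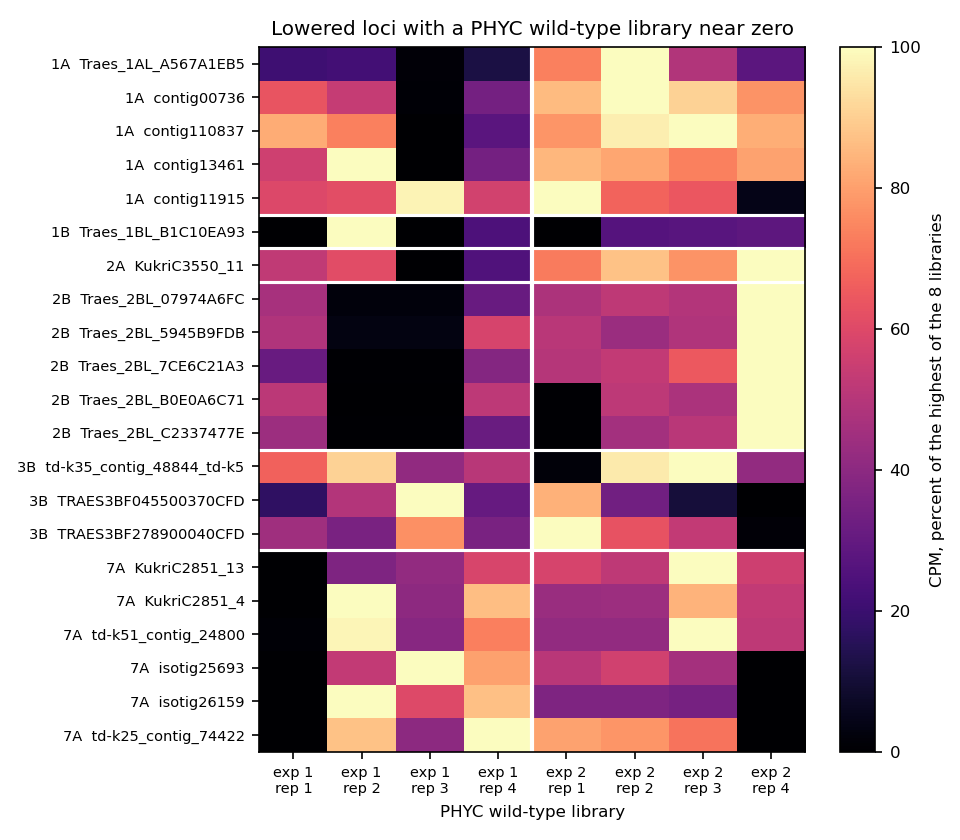
Rows are the 21 lowered loci with at least 1 near-zero PHYC wild-type library, grouped by chromosome, and columns are the 8 PHYC wild-type libraries. Colour gives CPM as a percentage of the highest of the 8 libraries. The dark columns differ between chromosomes and are shared within most of them.

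On 3B, TRAES3BF278900040CFD (766024078 to 766035819), among the 3 most abundant lowered loci, held 59.0, 46.9, 101 and 46.8 CPM in the PHYC wild type of experiment 1 and 132, 83.5, 70.0 and 1.85 in that of experiment 2. TRAES3BF045500370CFD (769168179 to 769170301) was also empty in library 4 of experiment 2, and had no read in any PHYB library. On 1B, Traes_1BL_B1C10EA93 (253840627 to 253848878), the second of the most abundant lowered loci and the one with the largest drop, held 0.499, 424, 0.666 and 103 CPM in experiment 1 and 0.807, 112, 115 and 120 in experiment 2. In phyC-null it lay between 0.228 and 1.93 CPM and in the PHYB wild type between 0 and 0.222. Here 3 PHYC wild-type libraries were at the level of phyC-null. Around each of the 15 placed loci of this kind, 45 to 148 other expressed loci lay within 5 Mb, members left out. At most 3 of these had any near-zero PHYC wild-type library and at most 1 had the same set of them. Members themselves could share a set, as the 2 loci on 3B did, which lie within 5 Mb of each other. Whether the pattern belongs to a region was not tested. Which plants or pools of plants the libraries came from beyond their replicate number is not given, and the part of plant-to-plant differences in these values was not tested.

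At 34 loci, 28 raised and 6 lowered, phyC-null was the line that stood apart by line means. The libraries of phyC-null and the PHYC wild type did not overlap at 21 of the 28 and 5 of the 6. The shares over expressed loci were 1.42% and 0.516%. In line means, the contrast in the PHYC lines is at these loci also one against the PHYB wild type. Such a contrast was not confined to them. The PHYB wild type was called against phyC-null, in either direction, at 54 of the 127 loci. Traes_2AS_AFA56788E, a raised locus outside the 34, had a fitted log2 difference of −1.34 (PHYB wild type minus phyC-null). Among the 28 raised loci of the 34, Traes_5AL_410996054 on a 5AL scaffold lay between 0 and 0.429 CPM in the PHYC wild type and between 2.08 and 6.35 CPM in phyC-null. Its maximum was 0.0924 CPM in the PHYB wild type and 0.179 CPM in phyB-null. contig22318, on a 6BL scaffold and the single member on 6B, had reads in 1 of 8 PHYC wild-type libraries and in every phyC-null library (0.284 to 2.29 CPM). It had none in phyB-null. Both loci were close to silent in 3 lines.

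A group of 3 raised loci on 3B, within 0.0061 Mb (718899776 to 718905863), also had phyC-null apart. Of these, td-k61_contig_66898 had the largest ratio, with 1.38 ± 0.226 CPM in phyC-null (SD, n = 8), 0.0635 ± 0.0783 in the PHYC wild type, 0.0118 ± 0.0236 in the PHYB wild type and 0.0203 ± 0.0293 CPM in phyB-null. The highest PHYC wild-type library, 0.224 CPM, was below the lowest phyC-null library, 1.18 CPM.

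The 2 most abundant raised loci, both on 4BL scaffolds, varied widely within phyC-null. Traes_4BL_1C9103753 held 63.7, 54.8, 142 and 170 CPM in phyC-null of experiment 1 and 129, 75.8, 124 and 40.03 in experiment 2, against 12.2 to 33.2 CPM in the PHYC wild type. Traes_4BL_518630DDF held 29.8, 29.9, 71.7 and 84.2 CPM in experiment 1 and 69.6, 42.7, 69.6 and 22.2 in experiment 2, against 6.43 to 16.9 CPM. The PHYB wild type was lower than the PHYC wild type at both, with 9.12 ± 6.22 and 4.53 ± 2.82 CPM, and phyB-null averaged 16.3 ± 11.8 and 8.36 ± 6.43. Another 4BL locus, Traes_4BL_A33060036, was high in the same phyC-null libraries, 3 and 4 of experiment 1 (13.4 and 12.2 CPM) and 3 of experiment 2 (12.9 CPM). In phyB-null library 1 of experiment 2 was the highest at all 3 loci, with 41.9, 22.7 and 4.51 CPM. The flat phyB-null ratio of these loci joined experiments that went opposite ways, with fitted log2 changes of −0.61 at Traes_4BL_1C9103753, −0.60 at Traes_4BL_518630DDF and −0.44 at Traes_4BL_A33060036 in experiment 1 and of 1.79, 1.82 and 1.76 in experiment 2. In experiment 2 the change at Traes_4BL_1C9103753 was called, in the same direction as in phyC-null. Whether reads of 1 transcript are split between their scaffolds is not known here.

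Of the lowered loci where phyC-null stood apart, contig80667, on a 1BL scaffold, was the clearest. It lay between 9.50 and 13.0 CPM in the PHYC wild type, between 0.231 and 0.967 in phyC-null, between 12.6 and 20.5 in the PHYB wild type and between 16.2 and 22.7 in phyB-null. A second locus with the same transcript, on 2A, averaged 1.57 CPM in the PHYC wild type against 1.58 in phyC-null, so the drop was at the 1BL locus. contig95349, on a 2AL scaffold, averaged 14.8 ± 1.75 CPM in the PHYC wild type, 2.38 ± 1.49 in phyC-null and 20.8 ± 4.73 in the PHYB wild type, while the locus of that transcript on 1B averaged 4.06 CPM in the PHYC wild type against 5.46 in phyC-null. Traes_4AL_03723C140 (4A, 188561821 to 188570623) averaged 31.1 ± 4.28 CPM in the PHYC wild type, 8.75 ± 1.75 in phyC-null, 46.5 ± 14.9 in the PHYB wild type and 69.6 ± 9.72 CPM in phyB-null. At these 3 loci the 8 phyC-null libraries were below all 24 libraries of the other lines.

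A pair of members on 3A, 0.294 Mb apart from end to end, changed in opposite directions and were mirror images of each other within the PHYB lines. contig100711 (158810630 to 158811529) went from 0.0363 ± 0.0282 CPM in the PHYC wild type to 3.91 ± 0.452 in phyC-null, and td-k55_contig_76148 (159104299 to 159104882) went from 3.38 ± 0.412 to 0.0215 ± 0.0311 CPM. In the PHYB wild type contig100711 held 0.0451, 2.17, 2.27 and 0 CPM in experiment 1 and 0.0319, 2.70, 5.80 and 3.096 in experiment 2. In the same libraries td-k55_contig_76148 held 5.82, 2.45, 2.44 and 6.27 CPM in experiment 1 and 5.62, 2.16, 0 and 3.096 in experiment 2. Every library thus had 1 of 3 states, the first locus alone, the second alone or both at intermediate level. In phyB-null, libraries 2 and 3 of experiment 1 and library 1 of experiment 2 had 5.38, 5.79 and 4.76 CPM at contig100711 and no read at td-k55_contig_76148, and library 1 of experiment 1 had none at contig100711 and 5.12 at td-k55_contig_76148. td-k51_contig_36191, placed on 7A (3073649 to 3076877), followed td-k55_contig_76148 through these states, with 2.93, 1.25, 1.22 and 2.99 CPM in the PHYB wild type of experiment 1 and 3.77, 1.59, 0 and 1.66 in experiment 2. All 8 libraries of the PHYC wild type were in 1 state at these 3 loci and all 8 of phyC-null in the opposite one. The flat ratio of phyB-null to the PHYB wild type at these loci is a ratio of means over libraries that differed from one another.

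One raised locus owed its place to 2 libraries. td-k31_contig_78656_td-k25_contig_73809 (5B, 258972443 to 258978325) held 0.184, 23.2, 0.0761 and 0.156 CPM in phyC-null of experiment 1 and 0.237, 11.7, 0.330 and 0.626 in experiment 2, so that its libraries other than number 2 overlapped the PHYC wild type (0.0397 to 0.457 CPM).

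The 2 experiments of a line were also compared. For the PHYC lines the rule used the mean of each experiment, so their differences are given as a description, without P values. In the model of all 32 libraries, 9 of 127 (7.09%) differed between experiments within the PHYC wild type, beside 4.89% of loci tested, 3 (2.36%) within phyC-null, beside 2.33%, and 2 (1.57%) within the PHYB wild type, beside 2.53%. In the PHYC wild type 6 of the 9 were lower in experiment 2, beside 2.86%, and 3 higher, beside 2.04%, while the 3 in phyC-null were higher, beside 1.37%, and the 2 in the PHYB wild type lower, beside 1.3% of loci tested that were lower and 1.23% that were higher. The count in phyC-null was 8 without its own library 3 of experiment 2, 7 without the PHYC wild-type library that stood apart and 6 without library 4 of the PHYB wild type in experiment 1. The number of all loci called depended on single libraries too. For the PHYC wild type it was 4418, and 1563 without library 2 or 6897 without library 1 of its experiment 1. For phyC-null it was 2105, and 937 without its library 2 of experiment 2, and for the PHYB wild type 2285, and 893 without its library 3 of experiment 1 or 3551 without library 2 of the PHYC wild type in experiment 1. td-k61_contig_52907 (6A, 200745254 to 200748826) fell by 4.73 ± 0.94 (log2, SE) from experiment 1 to 2 within the PHYC wild type. Its 4 libraries of experiment 1 held 0, 0.0397, 2.98 and 1.58 CPM, so this difference rests on 2 of them, and all 4 of experiment 2 were under 0.1 CPM. td-k61_contig_80096 (3A, 170054163 to 170055671) was higher in experiment 2 in both PHYC lines, by 2.64 ± 0.46 in the PHYC wild type and by 1.38 ± 0.31 in phyC-null. Its 4 libraries rose from 0.125 to 0.291 CPM to 1.06 to 2.02 CPM in the first and from 1.52 to 4.13 CPM to 5.73 to 7.77 CPM in the second, without overlap in either. Traes_1AL_4E0FFA904, on a 1AL scaffold, was higher in experiment 2 within phyC-null by 2.61 ± 0.44, with 0.857 to 2.69 CPM against 4.87 to 10.4.

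In the PHYB wild type, whose libraries entered the rule only through the flat ratio, Traes_2AS_5C5EAEAB8 (2A, 2051199 to 2053365) fell by 1.70 ± 0.36 (edgeR adjusted P = 0.0034) and TRAES3BF067800040CFD (3B, 73849402 to 73856879) fell by 1.33 ± 0.29 (edgeR adjusted P = 0.0044) from experiment 1 to 2. The first held 1.89 to 8.03 CPM in experiment 1 and 0.364 to 2.47 in experiment 2, with overlap, and the second 32.2 to 51.4 and 11.99 to 20.9 CPM, without overlap. TRAES3BF067800040CFD was also called lower in phyB-null in both experiments, by fitted log2 changes of −1.33 and −1.16, although its ratio of mean CPM, 0.52, met the rule. Traes_2AS_5C5EAEAB8 was called lower in phyB-null in experiment 1 alone, with fitted log2 changes of −1.91 in experiment 1 and −0.06 in experiment 2. In the PHYB wild type the count fell to 1 without library 3 of experiment 1, or without library 3 or 4 of experiment 2.

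By position, 88 of the 127 loci were placed on a chromosome and 39 lay on scaffolds assigned to an arm. The A genome held 79 and the B genome 48. Chromosome 1A held 20 loci, which is 0.766% of its expressed loci, and 7A held 18 (0.630%), against 0.323% over all chromosomes, while 6B held 1 (0.042%) and 7B 2 (0.078%). Lowered loci lay on 9 chromosomes or their scaffolds, with 1 to 9 on each, and 4B, 5B, 6A, 6B and 7B held none. Stretches in which 3 or more members followed each other within 1 Mb held 16 loci, namely 5 on 1A (230254627 to 232258340), 4 on 1B (257989283 to 259022309), 4 on 2A (1211605 to 3318691) and 3 on 3B. The members with the largest ratios in the 1A and 2A stretches were contig29284, with 0.175 ± 0.103 CPM in the PHYC wild type against 1.75 ± 0.364 in phyC-null, and Traes_2AS_AFA56788E, with 0.189 ± 0.0837 and 3.47 ± 0.657 CPM. Their means in the PHYB wild type were 1.54 ± 0.431 and 1.30 ± 0.370 CPM, above every PHYC wild-type library in both cases. Other expressed loci within 1 Mb of a placed member differed between both wild types at 455 of 1421 (32.02%), beside 29.8% of other expressed loci.

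**Figure D5:**
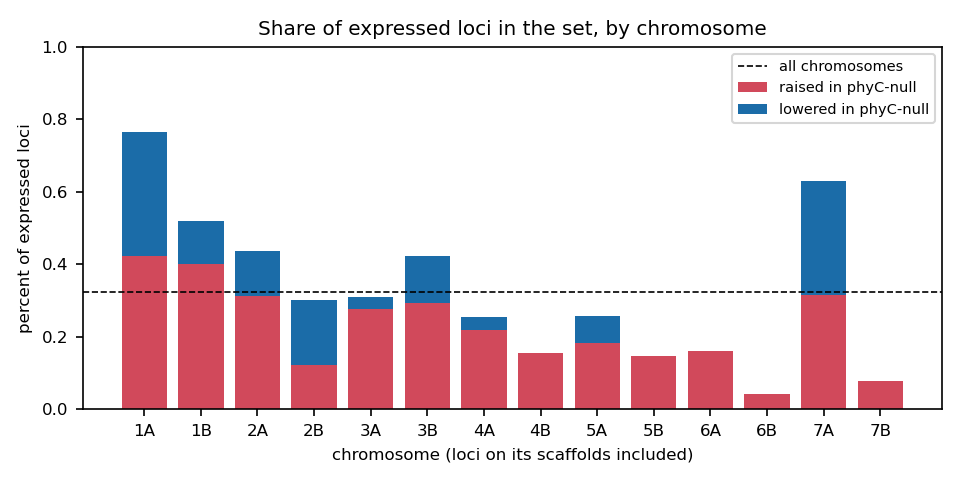
Bars give the members on each chromosome, scaffolds of its arms included, as a percentage of its expressed loci, divided into raised and lowered loci. The dashed line is the share over all chromosomes, 0.323%. 1A and 7A are highest, and 9 lowered loci lie on each of them.

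Of the members, 46.5% carried the name of a Traes gene model, beside 70.5% of expressed loci, and the other names are mostly those of assembled transcripts. Of the 127 loci, 35 share their transcript with 1 other locus, none of which is a member and 30 of which had no line mean of 1 CPM or more. At td-k31_contig_21611 on 1A the copy on 1B averaged 1.54 CPM in the PHYC wild type, 4.84 in phyC-null and 5.08 in the PHYB wild type, so both copies were lowest in the PHYC wild type. Where the counting assigned reads of near-identical copies to 1 of them, the values of such pairs are uncertain.

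For the flowering pathway, names were taken from the study's lists of genes shared by both mutants or specific to PHYC, with the miR5200 precursors. They match 20 loci, which were chosen on these samples and are not independent evidence of a direction. The flowering genes that the study lists as specific to PHYB were left out. Counts in the PHYB and PHYC experiments are therefore not a like comparison. GATA-A7 and miR5200-B are each counted at both loci that carry their transcript. In the PHYC experiments 7 were raised and 12 lowered in each (background 0.722% and 0.923% in experiment 1, 0.566% and 0.474% in experiment 2), and in the PHYB experiments 3 were raised in each and 12 and 10 lowered (background 3.98% and 5.43%, then 5.83% and 5.72%). The florigen gene FT-A1 averaged 12.5 CPM in the PHYC wild type against 0.060 in phyC-null, and 18.8 and 0.081 CPM in the PHYB wild type and phyB-null. At this locus both wild types were far above the 2 null mutants, which were near zero, unlike the 77 members at which the PHYB wild type lay with phyC-null. The B-genome copy FT-B1 averaged 10.4 CPM in the PHYC wild type and 25.6 in the PHYB wild type, against 0.0999 in phyC-null and 0.0366 in phyB-null, so its wild types differed more. The miR5200-A precursor averaged 2.85 CPM in the PHYC wild type against 43.5 in phyC-null, and 13.3 and 5.29 CPM in the PHYB wild type and phyB-null.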

How the data were processed

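Leaf RNA of 8 groups of 4 samples was sequenced in 50 bp single-end reads. The authors trimmed the reads, mapped them with GSNAP to the A and B chromosome arms of the IWGSC draft assembly v2.2, dropped reads with a mapping quality under 40 and counted unique reads on 150754 loci with HTSeq, and the deposited values are these raw counts. Positions are 1-based on that assembly. The members and lists were chosen with earlier results of these data known.

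CPM used library totals. Levels are CPM, not divided by length, so they are meant for comparison between lines. Where loci are termed abundant or of low abundance, they are ranked by CPM alone, with length not taken into account. Counts were tested with edgeR 4.0.16 (R 4.3.3), quasi-likelihood test, RLE factors, a minimum of 3 reads in 2 libraries, Benjamini-Hochberg adjustment over all loci tested and a threshold of 0.01, either per experiment (8 libraries) or with 1 mean per group over all 32. SE is the log2 change divided by the root of F. The comparison of the PHYB wild type with phyC-null was added after the values were seen. In simulated counts for the comparison of both wild types (90331 loci), 98.5% of 2-fold changes and 100% of 8-fold changes were recovered, and for the experiment difference within the PHYC wild type 47.8% and 100%. The simulation gave every locus the same dispersion and placed changes only at loci above 1 CPM. The lowered members had a median CV (SD over mean) of 0.55 over the PHYC wild-type libraries, beside 0.24 for expressed loci, so these rates need not hold for them.

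Loci were named by fixed rules. These were the 8 raised and 8 lowered members with the largest ratios among those without overlap, the 3 most abundant in each direction, the largest ratio in each stretch of at least 3, those next to the threshold and the 2 largest changes in each comparison of groups. contig00736, contig110837, KukriC3550_11, KukriC2851_4, isotig26159, Traes_2BL_7CE6C21A3, Traes_2BL_C2337477E, TRAES3BF045500370CFD, td-k31_contig_78656_td-k25_contig_73809, Traes_5AL_410996054, contig22318, Traes_4BL_A33060036, contig95349, Traes_4AL_03723C140, td-k31_contig_21611, Traes_4AS_1F3163292 and td-k61_contig_63190 were chosen after their values were seen. The labels give the replicates as biological without naming plants. The text of the rule allows its level requirement to be read in 3 ways, and it was applied here in each experiment. Alternatives were TMM factors, other filters, DESeq2 1.42.0, a replicate block, thinned libraries, other thresholds and each library left out.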

Additional observations from a re-analysis of the deposited data

Results flagged for a closer look

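Within groups of 4 libraries, 1 library lay far from the other 3 in 18 of 241 groups examined. The critical value used is passed by chance about 1 time in 20. Several of the loci examined were chosen after their values were seen, so the count cannot be set against that rate. In the PHYC wild type, Traes_1BL_B1C10EA93 held 0.807 CPM in library 1 of experiment 2 against 112 to 120 in the others, and isotig26159 held 0 CPM in library 4 of experiment 2 against 3.14 to 3.32. High values there were 18.99 CPM at Traes_7AS_988EC03B9 (others 9.46 to 10.01) and 29.8 CPM at KukriC2851_13 (others 15.5 to 17.3), both in library 3 of experiment 2. Smaller ones were 437 CPM at Traes_2AS_A0A7891B9 (others 408 to 410) in library 2 and 1.75 CPM at Traes_4BL_A33060036 (others 1.13 to 1.22) in library 1 of experiment 2, and 5.68 CPM at td-k45_contig_36876 (others 3.03 to 3.37) in library 3 of experiment 1.

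In phyC-null, td-k31_contig_78656_td-k25_contig_73809 held 23.2 CPM in library 2 of experiment 1 (others 0.0761 to 0.184) and 11.7 CPM in library 2 of experiment 2 (others 0.237 to 0.626). Traes_1BL_B1C10EA93 held 1.93 CPM in library 2 (others 0.228 to 0.429) and Traes_1AL_4E0FFA904 2.69 CPM in library 1 (others 0.857 to 1.11) of experiment 1.

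In the PHYB wild type of experiment 1, Traes_2AS_A0A7891B9 held 69.7 CPM in library 2 (others 56.6 to 58.6), Traes_2AS_AFA56788E 0.812 CPM in library 1 (others 1.59 to 1.71), and TRAES3BF067800040CFD 51.4 CPM (others 32.2 to 34.01) and contig95349 29.0 CPM (others 19.7 to 21.2) in library 4. In experiment 2, Traes_1AL_4E0FFA904 held 8.05 CPM in library 1 (others 2.18 to 3.08). In phyB-null, Traes_4BL_A33060036 held 4.51 CPM in library 1 of experiment 2 (others 1.19 to 1.59), and library 3 of experiment 1 had a total of 47695062 reads (others 25395835 to 27872187).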

How the results depend on the processing

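The rule found 194 loci with a smallest mean of 0.5 CPM and 394 with a ratio of 2, where 48.5% had the PHYB wild type near or beyond phyC-null. With the level required in either experiment it found 175 loci. With other scalings, levels, ratios of 4, a constant of 0.5 CPM or thinned libraries the share was 58.1% to 67.0%. With each library left out, the count was 116 to 139 and the share 58.0% to 64.6%.

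Members called between both wild types stayed at 93 to 105 under other scalings, filters, tests and thresholds and at 90 to 96 with a library left out, and those called between the PHYB wild type and phyC-null at 52 to 63 and 52 to 57. For the experiment difference within the PHYC wild type, 17 members were called at 0.05 and 7 to 12 with a library left out. Within phyC-null the count was 10 by DESeq2, 5 with filterByExpr, 5 with no filter, 5 in thinned libraries, 14 at 0.05 and 2 to 8 with a library left out. Within the PHYB wild type it was 8 by DESeq2, 7 at 0.05 and 1 to 3 with a library left out. In phyB-null it was 17 at 0.05 in experiment 1, and 18 by DESeq2 and 20 at 0.05 in experiment 2, with 1 to 8 and 4 to 13 when a library was left out. For phyC-null it was 62 to 102 in experiment 1 and 83 to 95 in experiment 2. Same-numbered replicates were not paired (correlations of deviations from −0.495 to 0.565, and in none of 28 pairs of groups were all 4 over 0.1). The replicate block left 94 members called between both wild types and 9, 3 and 2 between experiments, and gave 2 and 7 in phyB-null and 81 and 104 in phyC-null in experiments 1 and 2. The causes were not tested.

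The number of all loci called moved more. In phyC-null of experiment 1 it was 1273, and 3726 without library 2 of the PHYC wild type or 452 without library 4 of phyC-null, and 742 with the block. Most members lie under 5 CPM, where 1 read in the shallowest library is worth 0.0627 CPM and ratios near zero are set by the added 0.05.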
